A study of Saccharomyces cerevisiae with 4 samples.

Results

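The genes described here encode the cytosolic Hsp90 chaperone of the budding yeast Saccharomyces cerevisiae and its cochaperones. They are HSC82, HSP82, STI1, AHA1, HCH1, CPR6, CPR7, SBA1, CDC37 and CNS1, and their rows were taken by gene name from a deposited table of expression values, giving 10 of 7130 rows. Total RNA had been depleted of ribosomal RNA and sequenced from 2 libraries labelled Asr1-RING, a mutant in the RING domain of Asr1, and from 2 libraries labelled wild type (WT). All 4 came from log-phase cells grown in enriched medium to an optical density near 0.8. The RING domain gives Asr1 its ubiquitin ligase activity, whose known target is RNA polymerase II. The sources used here name neither the altered residues nor the parent strain. They do not say whether replicates were grown as separate cultures, so the p-values reflect the variation among these 4 libraries, and that variation may be technical.

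Hsp90 is an abundant ATP-dependent chaperone that completes the folding of kinases, transcription factors and other client proteins. In yeast it is made from a pair of duplicated genes, HSC82, which is expressed at a high level during growth, and HSP82, which is strongly induced by heat through the heat-shock factor Hsf1. Cochaperones guide its cycle. Sti1 joins Hsp90 to Hsp70 and holds back its ATPase, Cdc37 brings in kinases, Aha1 and Hch1 stimulate the ATPase, Sba1 (the yeast p23) binds the closed state, and Cpr6, Cpr7 and Cns1 dock on the end of Hsp90 through tetratricopeptide repeats.

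The values are FPKM, which count fragments per kilobase of a transcript and per 1e6 fragments mapped, so levels of different genes can be set side by side per length. From steps in the low values, depth was estimated at 43.6 and 45.5 times 1e6 fragments for the Asr1-RING libraries and at 47.8 and 41.4 times 1e6 for the WT libraries. At these depths the members rested on an estimated 541 fragments (CNS1) to 62386 fragments (HSC82) a library, with a counting error of at most 4.30% (CNS1). The alpha-cell markers lay between 337 and 4302 FPKM in the Asr1-RING libraries and between 340 and 4270 FPKM in WT. The a-cell markers lay between 2.87 and 55.9 FPKM in Asr1-RING and between 2.40 and 67.2 FPKM in WT. The diploid and sporulation markers lay between 0.976 and 10.98 FPKM in Asr1-RING and between 2.01 and 11.7 FPKM in WT. None of these markers passed limma's test, and the number with an unadjusted p under 0.05 was 0, 2 and 1 in the 3 lists. In bulk RNA, fewer cells that express a gene and less RNA per cell cannot be told apart.

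STI1 fell in the Asr1-RING libraries, and it was the only one of the 10 members to pass limma's test at an adjusted p under 0.05. The other 9 did not pass, among them both Hsp90 genes, and 0 members rose. Over the 6517 tested rows of open reading frames (ORFs), 2.87% were called in either direction, 1.95% higher and 0.921% lower. Over all 6892 tested rows, transfer and small nucleolar RNAs included, the shares were 6.83% called, 1.89% higher and 4.95% lower. The 1 call among 10 members is a result about STI1 and not about the group. The median log2 difference of the members, Asr1-RING minus WT on the log2(FPKM + 1) scale, was 0.08, against 0.03 over all tested ORFs.

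**Figure D1:**
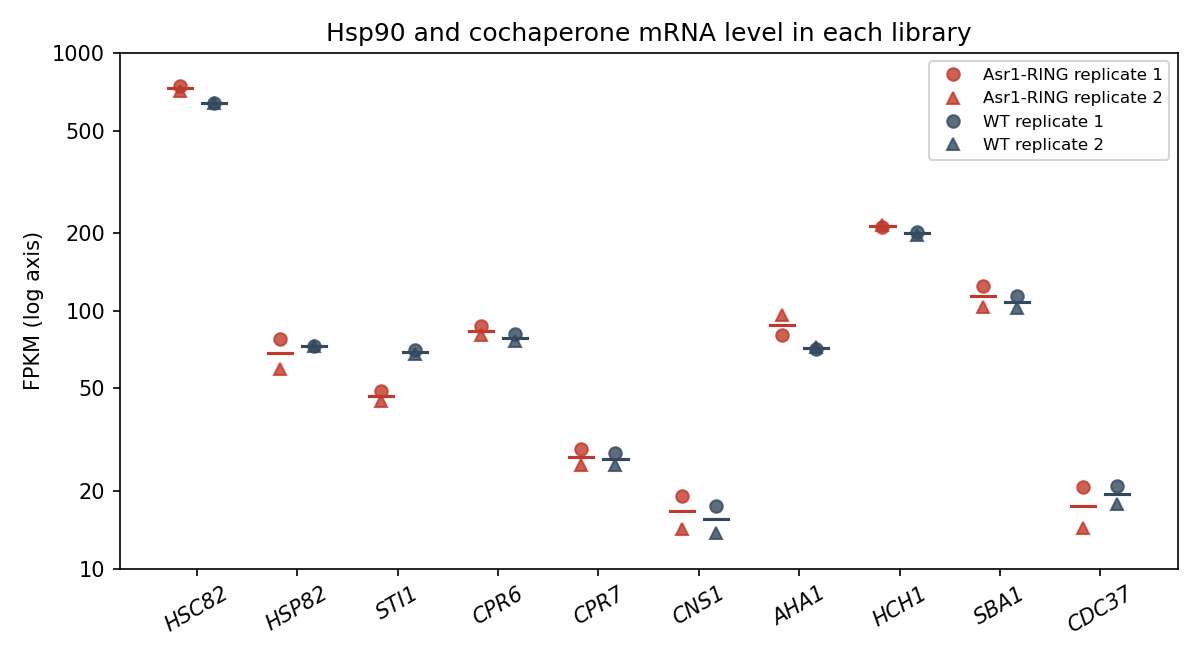
Level of each gene in FPKM on a log axis, with Asr1-RING in red at the left of each pair and WT in dark blue at the right. Circles are replicate 1, triangles replicate 2 and bars the mean of 2 libraries. HSC82 lies above every other member, and STI1 lies at 44.8 to 49.0 FPKM in Asr1-RING, below its WT values of 68.2 to 70.3 FPKM.

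HSC82 (YMR186W, chromosome XIII, 632354 to 634471 in sacCer2), the constitutive Hsp90 gene, had 747.6 and 712.8 FPKM in Asr1-RING, against 640.6 and 640.6 FPKM in WT. Both mutant libraries lay above both WT libraries. The mean was 730.2 ± 24.6 FPKM in Asr1-RING and 640.6 ± 0.0530 FPKM in WT (SD, n = 2), and the log2 difference was 0.19 (95% interval -0.03 to 0.41, limma adjusted p = 0.243). The WT values were closer to each other than their counting error, so their SD understates the error. The difference did not pass the test, and its interval reaches a rise of 0.41. After quantile normalization the log2 difference of HSC82 was 0.56 and passed (limma adjusted p = 0.0354). In that fit 307 rows were called higher, against 130 in the test as reported. Summed over all rows, FPKM came to 3.74e6 and 3.78e6 in Asr1-RING, against 5.37e6 and 4.87e6 in WT.

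HSP82 (YPL240C, chromosome XVI, 96496 to 98625), the heat-inducible copy, had 77.4 and 59.6 FPKM in Asr1-RING, against 73.1 and 73.2 FPKM in WT. The mutant libraries lay on either side of the WT libraries. The log2 difference was -0.10 (95% interval -0.45 to 0.24, limma adjusted p = 0.675), and without Asr1-RING replicate 2 it was 0.08. Per length, HSC82 had 9.65 and 11.97 times the level of HSP82 in Asr1-RING, against 8.77 and 8.75 times in WT, so HSC82 supplied 90.6% and 92.3% of the summed Hsp90 FPKM in Asr1-RING and 89.8% and 89.7% in WT.

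The coding sequences of HSC82 and HSP82 were 91.7% identical in the RefSeq genome R64, so reads from one copy could have been assigned to the other upstream. Of the 50-base words of HSC82, 6.43% occurred elsewhere in the genome, and the longest run shared with HSP82 was 113 bases. None of the 50-base words of the other 8 members occurred elsewhere. The last 90 bases of both coding sequences, which encode the tail that the tetratricopeptide repeats of Sti1, Cpr6, Cpr7 and Cns1 bind, are printed to show how alike the copies are. Capitals mark the 10 bases that differ. The stretches are R64 chrXIII:634383-634472 on the plus strand and chrXVI:96496-96585 on the minus strand.
HSC82: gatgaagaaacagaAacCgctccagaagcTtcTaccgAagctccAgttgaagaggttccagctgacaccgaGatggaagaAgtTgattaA
HSP82: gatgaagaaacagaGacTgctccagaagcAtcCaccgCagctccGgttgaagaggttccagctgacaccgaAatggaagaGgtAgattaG

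Apart from the small difference in length, the sum of HSC82 and HSP82 does not depend on how shared reads were split. It was 825 and 772.4 FPKM in Asr1-RING, against 713.7 and 713.7 FPKM in WT. Both mutant libraries were higher, with a log2 difference of 0.16. The exact two-sided permutation test over the 4 libraries gave p = 0.333, the smallest p that 2 against 2 allows, so this design cannot show the difference with that test. The log2 difference of the sum was 0.09 with median centring and 0.48 after quantile normalization.

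STI1 (YOR027W, chromosome XV, 381053 to 382822), the adaptor between Hsp70 and Hsp90, had 49.0 and 44.8 FPKM in Asr1-RING, against 70.3 and 68.2 FPKM in WT. Both mutant libraries lay below both WT libraries. The mean was 46.9 ± 2.95 FPKM in Asr1-RING and 69.2 ± 1.53 FPKM in WT (SD, n = 2), a ratio of means of 0.677. The log2 difference was -0.55 (SE 0.0954, 95% interval -0.79 to -0.32, limma adjusted p = 0.0278). Among the 60 ORFs called lower, 54, STI1 itself included, had a log2 difference at or below that of STI1.

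The STI1 call needed both WT libraries and depended on the rows tested with it, although its log2 difference moved little. The log2 difference lay between -0.65 and -0.49 under the 14 alternatives, and the call held in 10 of them. It ended without WT replicate 1 (log2 difference -0.53, limma adjusted p = 0.29), without WT replicate 2 (-0.58, adjusted p = 0.199), with ORF rows alone (adjusted p = 0.0585) and with no filter on low values (adjusted p = 0.0704). The rows next to STI1 were lower too without passing. BUB3, which ends 246 bases before it, had 14.8 and 14.9 FPKM in Asr1-RING, against 17.8 and 18.2 FPKM in WT (log2 difference -0.26, limma adjusted p = 0.144). CIN5, which lies 710 bases after it, had a log2 difference of -0.18 (adjusted p = 0.411). Lower rows on both sides were not particular to STI1, as AHA1, HCH1, CDC37 and CNS1 had them too.

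**Figure D2:**
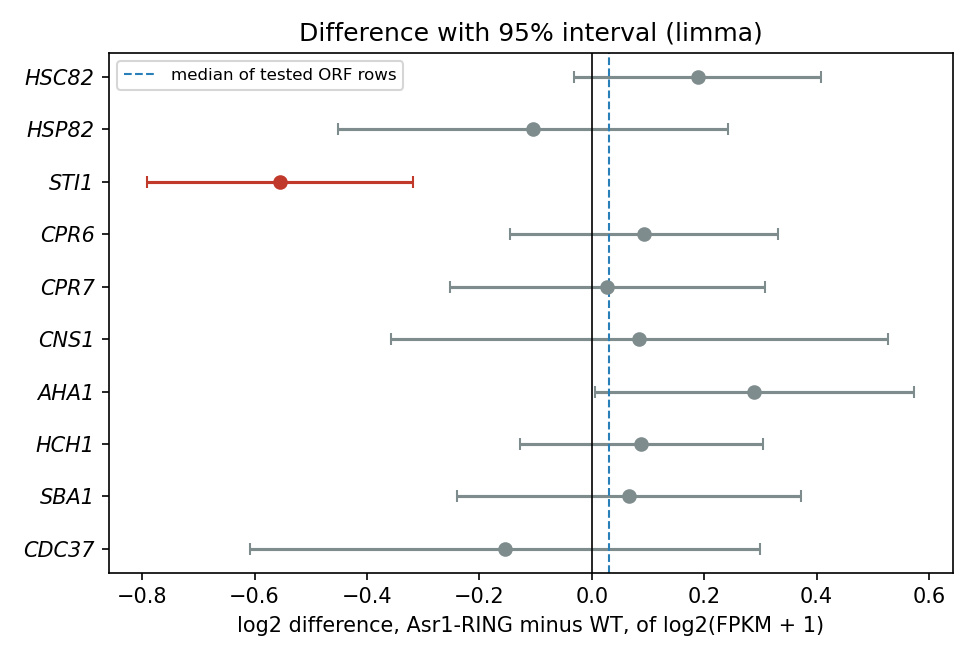
Log2 difference, Asr1-RING minus WT, of log2(FPKM + 1) for each gene (points) with its 95% interval from limma (bars). The dashed line is the median of the tested ORFs at 0.03, and STI1, in red, is the only member whose adjusted p is under 0.05.

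Neither ATPase activator passed the test. AHA1 (YDR214W, chromosome IV, 892873 to 893925), the main activator, had 80.5 and 96.1 FPKM in Asr1-RING, against 70.9 and 72.6 FPKM in WT. Both mutant libraries lay above both WT libraries, with a log2 difference of 0.29 (95% interval 0.0052 to 0.57, limma adjusted p = 0.183). AHA1 did not pass, and the size of its difference varied with the mutant library used. Against both WT libraries it was 0.42 for the second Asr1-RING library alone and 0.16 for the first alone. With 1 mutant library the spread comes from WT alone, so such a fit cannot decide whether AHA1 rose. HCH1 (YNL281W, chromosome XIV, 108467 to 108928), the shorter relative of AHA1, had 210.7 and 214.7 FPKM in Asr1-RING, against 202.7 and 197.3 FPKM in WT. The groups did not overlap, but the log2 difference was 0.09 (95% interval -0.13 to 0.30, limma adjusted p = 0.56). HCH1 spans 462 bases, so its level is the most sensitive of the 10 to the effective length used upstream.

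The cyclophilins Cpr6 and Cpr7, prolyl isomerases that bind the tail of Hsp90, did not pass. CPR6 (YLR216C, chromosome XII, 572098 to 573213) had 87.1 and 80.6 FPKM in Asr1-RING, against 81.0 and 76.1 FPKM in WT (log2 difference 0.09, 95% interval -0.14 to 0.33). Its row shares 303 bases with YLR217W, which had 295.4 and 268.2 FPKM in Asr1-RING and 260.1 and 259.8 FPKM in WT, and the sources used here do not say how strand was handled, so reads of the overlap cannot be assigned. CPR7 (YJR032W, chromosome X, 491073 to 492254) had 29.0 and 25.3 FPKM in Asr1-RING, against 28.0 and 25.2 FPKM in WT (log2 difference 0.03, 95% interval -0.25 to 0.31). In both genes the groups overlapped.

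CNS1 (YBR155W, chromosome II, 549765 to 550922), an essential tetratricopeptide-repeat cochaperone, had 19.1 and 14.3 FPKM in Asr1-RING, against 17.5 and 13.7 FPKM in WT. CDC37 (YDR168W, chromosome IV, 790326 to 791846), the essential kinase-specific cochaperone, had 20.7 and 14.4 FPKM in Asr1-RING, against 20.9 and 17.9 FPKM in WT. SBA1 (YKL117W, chromosome XI, 219968 to 220618) had 124.4 and 103.5 FPKM in Asr1-RING, against 113.9 and 103.0 FPKM in WT. In all 3 the libraries of a group differed by more than the group means did. Their log2 differences were 0.08 (95% interval -0.36 to 0.53) for CNS1, -0.15 (-0.61 to 0.30) for CDC37 and 0.07 (-0.24 to 0.37) for SBA1, with limma adjusted p-values of 0.792, 0.634 and 0.765. In the test as reported, the interval of CDC37 is wide enough to hold a fall as large as that of STI1. With the replicate number as a block the SE of CDC37 was 0.10, against 0.18 in the test as reported.

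Over the 10 members, 4 had groups that did not overlap, 3 higher (HSC82, AHA1, HCH1) and 1 lower (STI1). Of all tested ORFs 58.5% did not overlap, 34.8% higher and 23.7% lower, so this count is below the background. STI1 and AHA1 had an unadjusted p under 0.05, against 23.0% of ORFs.

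The order of the levels per length was much alike in the groups. HSC82 came first in Asr1-RING at 730.2 FPKM, followed by HCH1 at 212.7, SBA1 at 114.0, AHA1 at 88.3, CPR6 at 83.8, HSP82 at 68.5, STI1 at 46.9, CPR7 at 27.2, CDC37 at 17.6 and CNS1 at 16.7 FPKM. In WT the order from the top was HSC82, HCH1, SBA1, CPR6 at 78.5, HSP82 at 73.1, AHA1 at 71.8, STI1 at 69.2, CPR7, CDC37 and CNS1. In Asr1-RING the library ranges of AHA1 and CPR6 overlapped, as did those of CDC37 and CNS1. In WT no neighbours in the order overlapped, although HSP82, AHA1 and STI1 lay within 68.2 to 73.2 FPKM of each other. STI1 thus sat beside AHA1 in WT and apart from it in Asr1-RING. The ratio of AHA1 to STI1 was 1.64 and 2.15 in Asr1-RING, against 1.01 and 1.07 in WT.

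Relative to the Hsp90 messages, STI1 was again the member that differed most. It had 5.93 and 5.80 FPKM per 100 FPKM of HSC82 plus HSP82 in Asr1-RING, against 9.85 and 9.55 in WT. The groups did not overlap, and the log2 difference of the ratio was -0.73, with p = 0.333 in the exact two-sided permutation test, the smallest p possible. For AHA1 the same ratio was 9.76 and 12.4 in Asr1-RING, against 9.94 and 10.2 in WT. For CPR6 it was 10.6 and 10.4 in Asr1-RING, against 11.3 and 10.7 in WT. The 8 cochaperones summed to 75.2 and 76.9 FPKM per 100 FPKM of Hsp90 in Asr1-RING, against 84.8 and 80.4 in WT. Before division by Hsp90 their sum was 620.5 and 593.7 FPKM in Asr1-RING, against 605.4 and 574.1 FPKM in WT. In this undivided sum the groups overlapped, so a lower total of cochaperone messages was not seen.

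**Figure D3:**
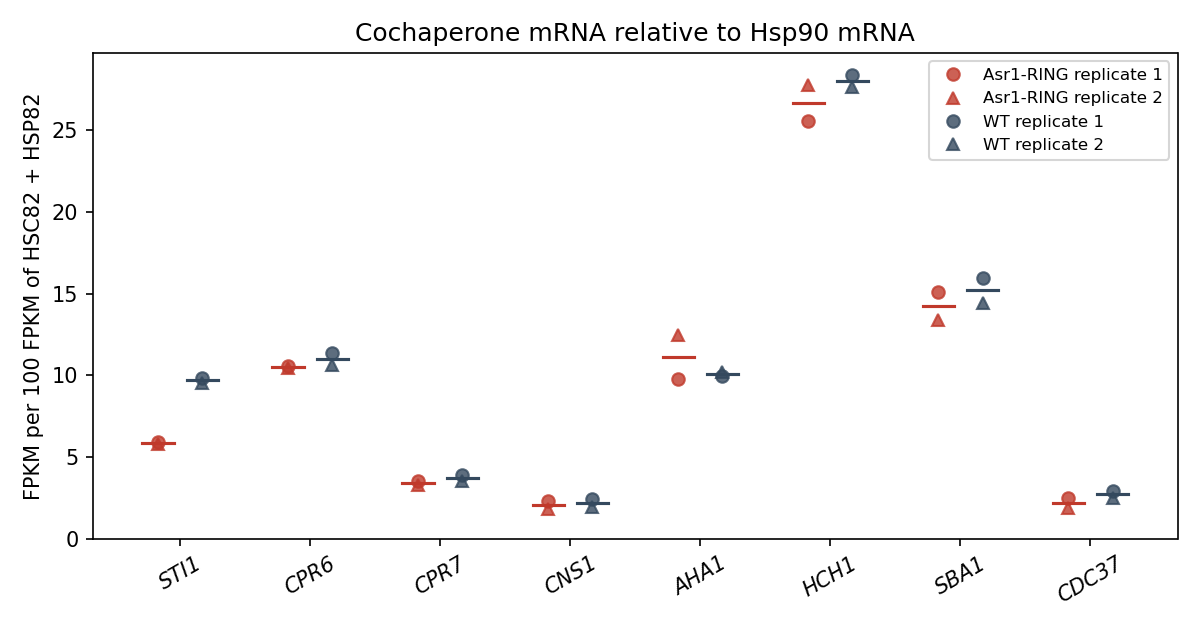
FPKM of each cochaperone per 100 FPKM of HSC82 plus HSP82, with Asr1-RING in red at the left of each pair and WT in dark blue at the right. Circles are replicate 1, triangles replicate 2 and bars the mean of 2 libraries. STI1 lies at 5.80 to 5.93 in Asr1-RING, below 9.55 to 9.85 in WT.

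Heat-shock elements, the binding sites of Hsf1, are made of alternating GAA and TTC units. In the 500 bases before the start codon, on both strands, the extended element GAANNTTCNNGAA or its reverse complement TTCNNGAANNTTC was found in STI1 and AHA1 and in none of the other 8 members. It was present in 1.48% of 6006 such windows in R64. The shorter TTCNNGAA, which overlaps the extended form, was found in 7 members (HSC82, HSP82, STI1, AHA1, HCH1, CPR6 and SBA1), against 21.2% of all windows. GAANNTTC was found in 4 members (STI1, AHA1, CPR6 and CDC37), against 19.2% of all windows. The GAANNTTC matches of STI1, and that of AHA1 at 301 to 294 bases, lie within the extended form. The CDC37 match lies 492 to 485 bases before the start codon, farther off than the end of the neighbouring TAF10 row, 258 bases before CDC37. The stress response element AGGGG, known to be bound by Msn2 and Msn4, was found in 2 members, HSP82 and SBA1, against 34.1% of all windows. Stretches are shown for STI1 and AHA1, the members with the lowest and highest log2 difference, with every extended element found, and for both Hsp90 genes with the TTCNNGAA matches more than 100 bases before the start codon. HSC82 had 1 further TTCNNGAA match, 48 to 41 bases before the start codon, and HSP82 had 1, 67 to 60 bases before it, which are not shown. Capitals mark the extended element in the first pair and TTCNNGAA in the second. They are R64 chrXV:380799-380861 on the plus strand, chrIV:892562-892598 plus, chrXIII:632126-632189 plus and chrXVI:98841-98872 minus.
STI1: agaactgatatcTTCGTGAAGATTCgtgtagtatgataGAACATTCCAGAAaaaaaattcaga
AHA1: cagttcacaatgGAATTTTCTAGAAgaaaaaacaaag
HSC82: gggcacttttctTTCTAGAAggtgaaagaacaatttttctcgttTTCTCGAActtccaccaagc
HSP82: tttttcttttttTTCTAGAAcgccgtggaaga
STI1 held 2 extended elements and AHA1 held 1. The members that share this element had log2 differences of opposite sign, -0.55 for STI1 and 0.29 for AHA1. These are matches of letters and do not show binding.

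Other genes of the heat-shock and chaperone systems gave the surroundings. The counts below are to be read against the 1.95% of tested ORFs called higher, the 0.921% called lower and the 23.0% with an unadjusted p under 0.05. Of 22 further genes known as Hsf1 targets, 2 rose, 0 fell and 20 did not pass, with 7 at an unadjusted p under 0.05 and a median log2 difference of -0.06. HSP26, a small heat-shock protein, had 23.2 and 27.0 FPKM in Asr1-RING, against 11.9 and 13.5 FPKM in WT (log2 difference 0.93, limma adjusted p = 0.00981). HSP60, the mitochondrial chaperonin, had 579.1 and 604.4 FPKM in Asr1-RING, against 421.4 and 445.9 FPKM in WT (log2 difference 0.45, limma adjusted p = 0.0472). Leaving out WT replicate 1 (adjusted p = 0.109) or WT replicate 2 (0.0531), or filtering no rows (0.0636), ended the HSP26 call. The HSP60 call ended without WT replicate 1 (0.364), WT replicate 2 (0.209) or Asr1-RING replicate 2 (0.0785), and with no filter (0.0704), median centring (0.0966), no trend (0.0594) or ORF rows alone (0.0598). It held in 7 of 14 alternatives, and after quantile normalization the HSP60 log2 difference was 0.73.

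Of the 10 genes of the Hsp70 machinery, from which Sti1 passes clients to Hsp90, none rose or fell by limma, and an unadjusted p under 0.05 was seen for 2. These were SSA1 (log2 difference 0.32, limma adjusted p = 0.130) and SSA2 (0.24, adjusted p = 0.169), both higher in Asr1-RING. The SSA1 row overlaps YAL004W, which had 2164 and 2137 FPKM in Asr1-RING, against 1730 and 1786 FPKM in WT. Reads of that overlap cannot be assigned, and sequence shared by SSA1 and SSA2 was not examined. The median log2 difference of the 10 was -0.04, with 4 positive and 6 negative. The sum over the 10 was 5399 and 5572 FPKM in Asr1-RING, against 4615 and 4790 FPKM in WT. SSA2 was the highest of them, at 3031 and 3143 FPKM in Asr1-RING, against 2538 and 2676 FPKM in WT. Of the 10 genes 8 are also among the Hsf1 targets. HSF1 itself had 10.3 and 8.86 FPKM in Asr1-RING, against 11.3 and 10.3 FPKM in WT (log2 difference -0.16, limma adjusted p = 0.424), and its row overlaps 2 others. Among 7 further Hsp90 cofactors none passed and 2 had an unadjusted p under 0.05. The nearest to passing was PPT1, the Hsp90-bound phosphatase, at 67.9 and 82.4 FPKM in Asr1-RING, against 53.6 and 53.9 FPKM in WT (log2 difference 0.47, limma adjusted p = 0.0773). Of 7 Hsp90 clients none passed, with a median of -0.10, and 3 had an unadjusted p under 0.05. These were MPS1 (log2 difference -0.36) and SWE1 (-0.30), both lower in Asr1-RING, and SLT2 (0.76), which was higher.

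The chaperonin CCT, the other large cytosolic folding machine, had positive differences in 8 of 8 subunits. The subunits form 1 complex and were read in the same 4 libraries, so the 8 signs are not separate observations. How many tested ORFs had a positive difference was not counted, and the ORF median was 0.03. TCP1 rose, with 256.9 and 255.6 FPKM in Asr1-RING, against 175.4 and 185.1 FPKM in WT (log2 difference 0.51, limma adjusted p = 0.0305), and 7 subunits did not pass. Of the 8 CCT genes 4 had an unadjusted p under 0.05, and their median was 0.30. Among 12 general stress genes known as targets of Msn2 and Msn4, HXK1 and GPH1 rose, 0 fell and 10 did not pass, with 5 at an unadjusted p under 0.05 and again a median of 0.30. The calls of TCP1, HXK1 and GPH1 ended without WT replicate 1 (limma adjusted p = 0.301, 0.225 and 0.328) or WT replicate 2 (0.1795, 0.131 and 0.198), and that of GPH1 also without Asr1-RING replicate 2 (0.0576). With ORF rows alone all 3 ended (limma adjusted p = 0.0556 for TCP1, 0.0556 for HXK1 and 0.0650 for GPH1). TCP1 was also lost with median centring (0.0685), and HXK1 (0.110) and GPH1 (0.0993) with no filter on low values. The rows of HXK1, GPH1, CCT2, CCT6 and CCT8 overlap other rows.

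**Figure D4:**
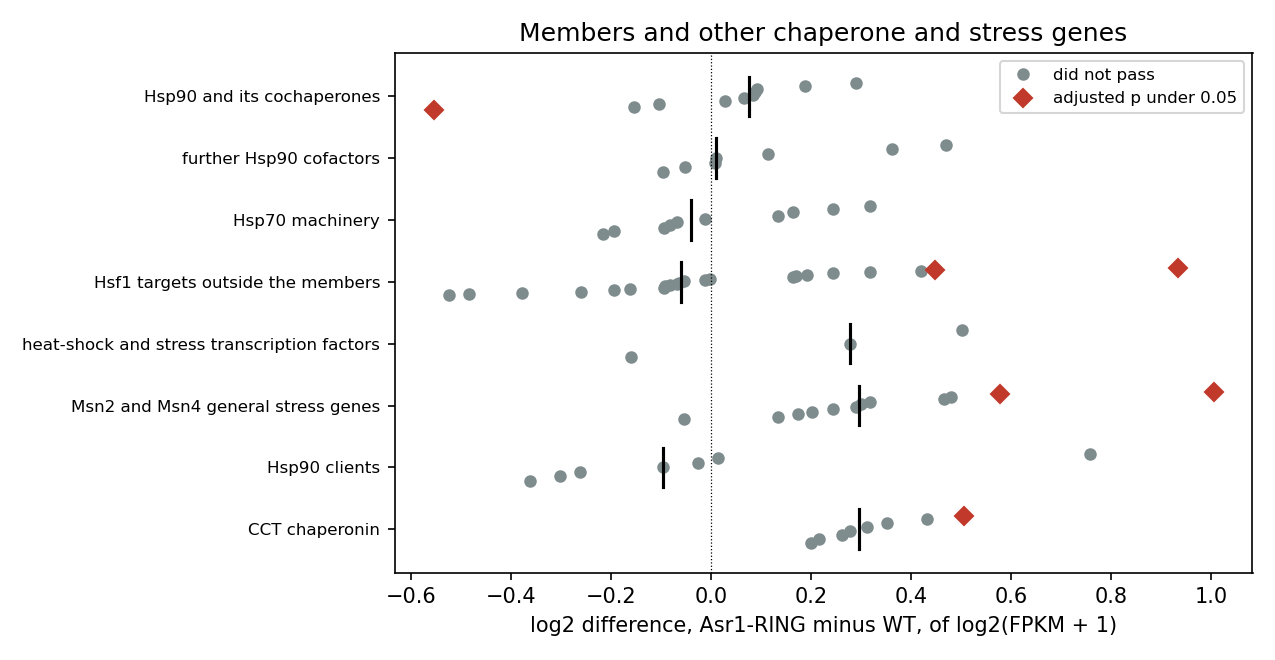
Log2 difference, Asr1-RING minus WT, of log2(FPKM + 1) for each gene, grouped by list. Red diamonds have an adjusted p under 0.05, grey circles did not pass, and the black tick is the median of the list. STI1 is the only called gene below 0, and the CCT and general stress lists have medians of 0.30.

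The profiles most like each Hsp90 gene were sought over the 4 libraries among 4693 other ORFs with a mean of at least 10 FPKM, by Euclidean distance of centred log2 values. For HSC82 these were PUP1 (distance 0.00277), GAT1 (0.0196) and YOR102W (0.0217). For HSP82 they were TFC7 (0.0438), ATX1 (0.0438) and YLR126C (0.0453). With 4 libraries and 4693 ORFs, close matches are likely by number alone, so these names do not show shared regulation.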

How the data were processed

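The authors deposited 1 table of FPKM values, 1 column per library, made with TopHat2 and Cufflinks on the genome build sacCer2, per the submitters' processing notes. The sources used here give no versions or annotation and no handling of strand and multi-reads. Samples were grouped by title, columns were tied to them by description label, and 0 value columns were unused. Coordinates are those of the table, counted from 1, unless R64 is named.

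Rows that averaged at least 1 FPKM were compared as log2(FPKM + 1), a scale that understates changes of low rows, with limma 3.58.1 in R 4.3.3. The moderated test followed the trend of variance with intensity. It had 2 residual degrees of freedom, 3.71 from the prior, and two-sided p-values with Benjamini-Hochberg adjustment over all 6892 tested rows. All 10 members passed the filter. The test was checked on simulated data. Means are given with SD over 2 libraries.

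Depth was estimated as the value between 30 and 60, in units of 1e6 fragments, at which most low ORF rows of 350 to 3000 bases, holding 0.5 to 8.5 fragments, became whole within 0.1 after taking 204 bases off their length. At that depth 86.9% and 85.9% of the rows used in Asr1-RING and 90.2% and 86.2% in WT were whole. A floor of 3 fragments on a row of 1 kb is 0.0864 and 0.0828 FPKM in Asr1-RING and 0.0788 and 0.0910 FPKM in WT. Floors and counting errors cover counting error only.

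Sequences came from RefSeq R64 and its own annotation, read with Python 3.11.15, pandas 2.3.3 and Biopython 1.88. Figures used matplotlib 3.10.9. All 10 members are named with every library's value. Of the other lists, called genes were named, and otherwise at most 3 with the smallest p. The members and lists were chosen with earlier results of these data known. Alternatives were other pseudocounts, filters, scalings and moderation, ORF rows alone, the replicate number as a block, and each library left out.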

Additional observations from a re-analysis of the deposited data

How the results depend on the processing

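With 2 libraries a group, single libraries moved the counts. Over the fits that left out 1 library, members called higher ranged from 0 to 1, members called lower from 0 to 1, rows called higher from 16 to 781, rows called lower from 197 to 553 and the members' median log2 difference from -0.066 to 0.13. The 130 rows higher and 341 lower of the test as reported became 21 and 182 with no filter, 36 and 23 with ORF rows alone, 70 and 447 with median centring and 307 and 316 after quantile normalization. Rows called higher numbered 216 with a mean of at least 10 FPKM, 256 with robust moderation and 237 with the replicate number as a block. Members called lower were 0 with no filter and 0 with ORF rows alone, where fewer calls were made in all. Members called higher were 1 after quantile normalization (HSC82).

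The summed Hsp90 log2 difference was 0.087 with median centring and 0.48 after quantile normalization, against 0.16 as reported; the cause was not tested. Only members that had not passed changed sign. These were CPR7 (-0.047) and SBA1 (-0.0084) with median centring, and CPR6 (-0.034), CPR7 (-0.044) and SBA1 (-0.026) after quantile normalization. Without single libraries CPR7 ranged from -0.068 to 0.12, SBA1 from -0.065 to 0.20, CNS1 from -0.11 to 0.28, HSP82 from -0.29 to 0.082 and CDC37 from -0.40 to 0.094.

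Replicate numbers are shared by the groups, but the deviations of same-numbered libraries correlated at -0.07 over all tested rows and at 0.14 over ORF rows, with 2 pairs. HSC82, STI1, CPR6, CPR7, SBA1, CDC37 and CNS1 were each higher in replicate 1 than in replicate 2 in both groups. For HSC82 in WT the gap was smaller than the counting error. How many ORFs share this pattern was not counted. The block changed no member's call (STI1 limma adjusted p = 0.0348). A lone library in a group was assumed to vary like the other group.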
